A study of Homo sapiens with 6 samples.

Results

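The aldo-keto reductases are enzymes that use NADPH to reduce aldehydes and ketones to alcohols. The set described here is 8 genes of this family, AKR1A1, AKR1B1, AKR1B10, AKR1C1, AKR1C2, AKR1C3, AKR1E2 and AKR7A2, found by name among the 58735 genes of the deposited table. They were chosen by their FPKM levels in these same 6 libraries, with the difference between the groups known, so their differences are given as descriptions and not as tests. RNA sequencing was done on 3 libraries with a short hairpin RNA (shRNA) against HYOU1 and 3 libraries with a control shRNA. HYOU1 encodes a chaperone of the endoplasmic reticulum. All 6 libraries are labelled as Hep3B, a line from a human hepatocellular carcinoma, with no other treatment, allele or time named, and the labels do not name the hairpin sequence, the number of hairpins or whether cells were pooled or cloned. Whether replicates came from separate cultures is not stated, so p-values reflect variation among these libraries that could be technical.

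Members of the AKR1C subfamily act as hydroxysteroid dehydrogenases and also reduce prostaglandins and aldehydes made by lipid peroxidation. Several family members, the AKR1C genes and AKR1B10 among them, are known targets of the transcription factor NRF2, which binds antioxidant response elements when cells meet electrophiles or oxidants. In liver the AKR1C enzymes inactivate steroid hormones and take part in bile acid synthesis.

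The libraries held 16893091 to 18233240 fragments, recovered from the deposited FPKM (fragments scaled to gene length in kilobases and to a library total). HYOU1 was at 2.35, 2.32 and 2.37 FPKM with HYOU1 shRNA and at 37.6, 58.2 and 59.5 FPKM with control shRNA, so each library matched its label. Control replicate 1 stood apart. Its log2 level less the mean of control replicates 2 and 3 had a median of 0.76 in the tenth of tested genes with the lowest GC content, and of -1.0 in the tenth with the highest. Mitochondrial genes took 3.39% to 3.84% of the fragments with HYOU1 shRNA and 4.96% to 7.59% with control shRNA, the highest share being that of control replicate 1. For some of the results below, values without this library or after a correction for GC content are also given. Of 19 hepatocyte markers 2, RBP4 and HNF4A, reached a mean of 1 FPKM, while ALB, APOA2, APOB and TTR were listed at 0 in every library. The summed level of the 19 markers was 7.59 to 8.94 FPKM with HYOU1 shRNA and 10.3 to 14.4 FPKM with control shRNA. Hep3B is known as a line that makes albumin and apolipoproteins, so these values go against the label. The identity of the cells is therefore in doubt, and every value below describes the libraries labelled Hep3B. Of 7 bile duct cell markers 5 reached 1 FPKM (summed level 70.2 to 74.8 FPKM with HYOU1 shRNA and 63.6 to 69.2 FPKM with control shRNA). Likewise 4 of 8 fibroblast and stellate cell markers reached it (summed level 10.5 to 11.1 FPKM with HYOU1 shRNA and 10.4 to 12.4 FPKM with control shRNA), whereas none of 6 endothelial and none of 7 immune cell markers did. Fewer cells of a type and less RNA per cell cannot be told apart in such libraries. The part of these levels in the results below was not tested.

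Sequences of the start regions are shown first because 2 of the genes, AKR1C1 and AKR1C2, are near-copies of each other. RefSeq promoters on GRCh38.p14, each from 250 bases before to 50 bases after an annotated start, were found for 7 of the 8 genes, with 11 starts in all. AKR1B10 had no entry. Those of AKR1C1 (chr10:4963165-4963464, plus strand), AKR1C2 (chr10:5003808-5004107, minus strand) and the 2 annotated starts of AKR1C3 (chr10:5048531-5048830 and chr10:5094164-5094463, plus strand) follow. Capitals mark the CCAAT box, searched as CCAAT on both strands and found here in its reverse form.
AKR1C1: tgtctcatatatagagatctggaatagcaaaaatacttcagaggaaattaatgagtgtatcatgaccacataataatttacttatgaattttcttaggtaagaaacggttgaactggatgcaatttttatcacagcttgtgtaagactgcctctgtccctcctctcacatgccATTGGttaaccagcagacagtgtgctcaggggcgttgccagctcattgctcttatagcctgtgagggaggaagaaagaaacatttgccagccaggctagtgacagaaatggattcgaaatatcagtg
AKR1C2: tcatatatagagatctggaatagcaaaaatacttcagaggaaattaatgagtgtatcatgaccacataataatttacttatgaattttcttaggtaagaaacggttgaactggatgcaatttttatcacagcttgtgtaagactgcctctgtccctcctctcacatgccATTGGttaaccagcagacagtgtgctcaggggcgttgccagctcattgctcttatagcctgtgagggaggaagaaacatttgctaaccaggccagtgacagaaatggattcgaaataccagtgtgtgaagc
AKR1C3, upstream start: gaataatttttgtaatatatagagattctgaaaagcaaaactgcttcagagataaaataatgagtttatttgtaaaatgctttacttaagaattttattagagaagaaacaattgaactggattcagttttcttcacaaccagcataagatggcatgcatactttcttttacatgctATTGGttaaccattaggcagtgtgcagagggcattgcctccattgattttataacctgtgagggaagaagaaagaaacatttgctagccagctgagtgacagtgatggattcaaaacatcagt
AKR1C3, downstream start: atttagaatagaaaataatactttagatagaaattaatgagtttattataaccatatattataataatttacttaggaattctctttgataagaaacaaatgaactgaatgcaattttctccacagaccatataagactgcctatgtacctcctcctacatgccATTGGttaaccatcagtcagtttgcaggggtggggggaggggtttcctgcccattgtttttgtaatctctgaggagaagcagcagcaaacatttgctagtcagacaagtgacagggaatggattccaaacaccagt

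The AKR1C1 and AKR1C2 windows held a run of 243 identical bases and were 93.5% identical over 308 aligned columns. The AKR1C3 windows were less similar to that of AKR1C1, at 75.2% and 72.5% identity. The CCAAT box lay 77 bases before the start in AKR1C1, 81 in AKR1C2, and 73 and 86 in AKR1C3. Of the 7 genes with a promoter 5 held one, AKR1B1 and AKR1E2 besides the AKR1C genes, whose windows resemble each other. Among 34796 promoters 34.6% held one, a share per promoter and not per gene. The core of the antioxidant response element, searched as TGACNNNGC on both strands, was present in 13.3% of all promoters and in 1 of the 7 genes, AKR7A2. The AKR7A2 promoter (chr1:19312097-19312396, minus strand) is shown with its 3 matches, which do not overlap, in capitals. No AP-1 site, searched as TGANTCA, was in any of the 11 windows, against 7.73% of all promoters. A match or its absence describes these letters in these windows only, and the counts by gene are not compared with the shares by promoter.
AKR7A2: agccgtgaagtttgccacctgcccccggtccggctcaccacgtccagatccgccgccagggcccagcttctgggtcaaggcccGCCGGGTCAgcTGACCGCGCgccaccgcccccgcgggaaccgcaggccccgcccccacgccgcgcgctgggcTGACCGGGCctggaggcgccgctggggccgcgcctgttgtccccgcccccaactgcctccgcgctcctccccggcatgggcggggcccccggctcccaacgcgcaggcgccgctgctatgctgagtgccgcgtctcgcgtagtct

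The coding sequences showed the same order of likeness. Those of AKR1C1 and AKR1C2, 969 bases each, differed in 19 of 970 aligned columns, an identity of 98.0%. AKR1C3 was 91.7% identical to AKR1C1 and 91.3% to AKR1C2, and AKR1C4 89.1% to AKR1C1. AKR1B1 and AKR1B10 were 76.9% identical. Of the 920 windows of 50 bases along the AKR1C1 coding sequence, 500 (54.3%) occurred unchanged in an annotated transcript of another gene, and for AKR1C2 525 (57.1%) did. With windows of 100 bases the shares were 20.7% for AKR1C1 and 26.4% for AKR1C2. For AKR1C3 the share was 23.0% with windows of 50 bases and 9.77% with windows of 100 bases, and AKR1A1 and AKR1E2 shared no window of either length. The sources used here do not say how fragments that fit several genes were counted. The split of fragments between AKR1C1 and AKR1C2 is therefore uncertain, and their sum is given as well.

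AKR1C1, AKR1C2 and AKR1C3 were all lower with HYOU1 shRNA, as was AKR1B1. AKR1A1 had a higher mean, AKR7A2 was close to its control level, and AKR1B10 and AKR1E2 were near the floor of detection. The fit used limma on log2(FPKM + 0.1), a scale that understates the change of weakly expressed genes, over the 12448 genes that averaged 1 FPKM or more. Called genes are those whose p, adjusted over all of these by the method of Benjamini and Hochberg, was under 0.05. Of the 8 genes 6 passed the filter on low values. Of these, 4 were called, all of them lower and 0 higher, while 12.3% of all tested genes were called in either direction, 5.66% lower and 6.6% higher. The median log2 fold change was -0.73 over these 6 genes and 0.035 over all tested genes. Since the genes were chosen with this comparison known, nothing is read from that count.

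AKR1C1 (ENSG00000187134, chromosome 10, 4963253 to 4983283 on GRCh38, plus strand) encodes the hydroxysteroid dehydrogenase that inactivates progesterone. It was at 2.40, 2.91 and 2.77 FPKM in the 3 HYOU1 shRNA libraries and at 11.2, 9.83 and 10.4 FPKM in the 3 control libraries. Every HYOU1 shRNA library lay below every control library, with a wide gap. The means were 2.69 ± 0.263 FPKM with HYOU1 shRNA and 10.5 ± 0.694 FPKM with control shRNA (SD, n = 3 each), and the log2 fold change was -1.93 (standard error 0.13). These levels came from 376, 468 and 424 fragments in the HYOU1 shRNA libraries and 1678, 1615 and 1639 in the control libraries.

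AKR1C2 (ENSG00000151632, chromosome 10, 4987400 to 5018031, minus strand) encodes an enzyme that inactivates dihydrotestosterone and binds bile acids. Its values were 12.6, 15.9 and 13.9 FPKM with HYOU1 shRNA and 53.7, 45.6 and 48.8 FPKM with control shRNA. The groups again lay far apart, with means of 14.1 ± 1.63 FPKM for HYOU1 shRNA and 49.4 ± 4.08 FPKM for control shRNA (SD, n = 3 each). At -1.80 (standard error 0.13) its log2 fold change was close to that of AKR1C1. Together, on the authors' scaling, AKR1C1 and AKR1C2 had 103, 128 and 114 fragments per 1000000 with HYOU1 shRNA and 445, 381 and 407 fragments per 1000000 with control shRNA, a 3.58-fold lower mean that does not depend on how fragments were split between these 2 genes. The ratio of AKR1C1 to AKR1C2 fragments was 0.259 ± 0.0112 with HYOU1 shRNA and 0.288 ± 0.00473 with control shRNA (SD, n = 3 each).

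AKR1C3 (ENSG00000196139, chromosome 10, 5035354 to 5107686, plus strand) encodes the family member that makes testosterone from androstenedione and converts prostaglandins. It was at 37.9, 40.2 and 40.2 FPKM with HYOU1 shRNA and at 78.1, 67.9 and 75.5 FPKM with control shRNA. The groups did not overlap, but the difference was smaller than that of its neighbours, with a log2 fold change of -0.90 (standard error 0.11). The call on AKR1C3 was lost without any 1 of the HYOU1 shRNA libraries, and its log2 fold change ranged from -1.01 to -0.75 over all alternatives. In each HYOU1 shRNA library the AKR1C3 level was 2.54 to 3.00 times that of AKR1C2, against 1.45 to 1.55 times in the control libraries. By these levels, the make-up of the subfamily leaned more to AKR1C3 in every HYOU1 shRNA library than in any control library. Of the 50-base coding windows of AKR1C3, 18.4% also occur in AKR1C2, so the size of this ratio is uncertain.

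AKR1B1 (ENSG00000085662, chromosome 7, 134442350 to 134459284, minus strand) encodes aldose reductase, which turns glucose into sorbitol in the polyol pathway. Its values were 54.2, 58.8 and 57.4 FPKM with HYOU1 shRNA and 77.5, 84.0 and 91.4 FPKM with control shRNA. The groups did not overlap, and the log2 fold change was -0.57 (standard error 0.11). The call on AKR1B1 was lost without any 1 of the HYOU1 shRNA libraries, without control replicate 2 or control replicate 3, and with no filter on low values, whereas its log2 fold change stayed between -0.68 and -0.51 over all alternatives.

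AKR1A1 (ENSG00000117448, chromosome 1, 45550543 to 45570049, plus strand) encodes aldehyde reductase, which acts on glucuronate and many aldehydes. It was at 57.3, 59.6 and 60.2 FPKM with HYOU1 shRNA and at 37.1, 43.8 and 50.1 FPKM with control shRNA. All HYOU1 shRNA libraries lay above all control libraries, yet the spread of the controls was wide and the gene was not called, at a log2 fold change of 0.44 (standard error 0.14). Without control replicate 1 the value was 0.33 (standard error 0.072) and the gene was called, in a fit that called 44.3% of all genes. GC correction gave 0.26 (standard error 0.076), also called, in a fit that called 40.6% of all genes. The 4 genes lower with HYOU1 shRNA were called in both of these fits. AKR1A1 has a GC content of 56.7%, and control replicate 1 lay 0.34 below the other two controls on the log2 scale, so part of the difference moved with that library.

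AKR7A2 (ENSG00000053371, chromosome 1, 19303965 to 19312146, minus strand) encodes a reductase of succinic semialdehyde and of the dialdehyde of aflatoxin. It was at 31.6, 35.5 and 38.6 FPKM with HYOU1 shRNA and at 23.3, 39.2 and 39.9 FPKM with control shRNA. Control replicate 1 was the lowest of the 6 libraries and the other two controls were the highest. The direction hung on that library, with a log2 fold change of 0.082 (standard error 0.23) over all 6 libraries, -0.17 (standard error 0.086) without control replicate 1 and -0.26 (standard error 0.060) with GC correction, in which it was called.

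AKR1E2 and AKR1B10 did not reach the mean of 1 FPKM and were not tested. AKR1E2 (ENSG00000165568, chromosome 10, 4786629 to 4848062, plus strand), which encodes a reductase of anhydrofructose, had 15, 28 and 15 fragments with HYOU1 shRNA and 28, 26 and 32 with control shRNA. AKR1B10 (ENSG00000198074, chromosome 7, 134527592 to 134541408, plus strand), a reductase of retinal that is often raised in liver tumours, had 4, 9 and 3 fragments with HYOU1 shRNA and 10, 10 and 7 with control shRNA. The groups overlapped for both genes, and a difference was not detectable at this depth. Counting error alone is large at such numbers.

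**Figure D1:**
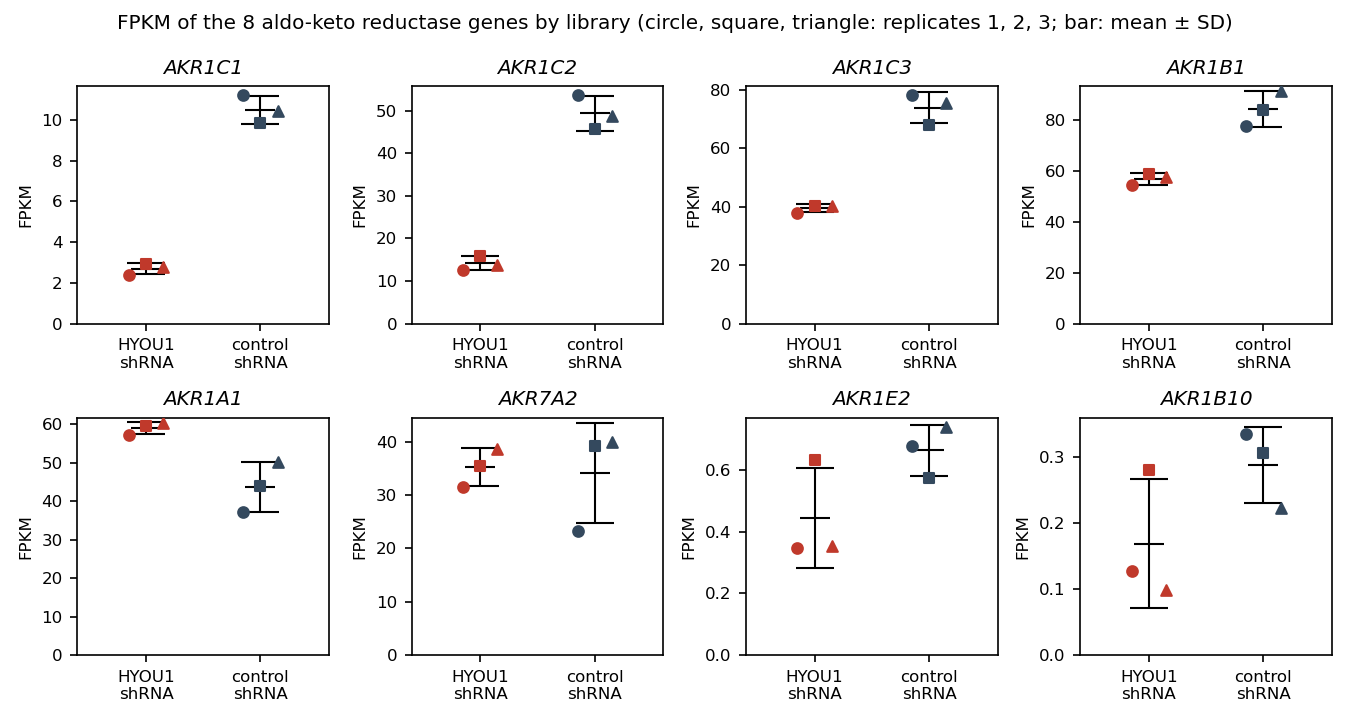
FPKM (vertical axes, linear, from 0) of the 8 genes in the 3 HYOU1 shRNA libraries (red) and 3 control shRNA libraries (dark blue), with symbols for replicates 1 to 3 and bars for the mean ± SD. The 3 AKR1C genes and AKR1B1 sit lower in every HYOU1 shRNA library, AKR1A1 sits higher, and control replicate 1 (circle) is the low point for AKR7A2.

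In all, the groups did not overlap in 5 of the 8 genes, 4 of them lower and 1 higher with HYOU1 shRNA. Among all tested genes the groups did not overlap in 44.4%, with 20.6% lower and 23.8% higher. The order of levels also differed between the groups. With HYOU1 shRNA it ran AKR1A1 (59.0 FPKM), AKR1B1 (56.8), AKR1C3 (39.4), AKR7A2 (35.2), AKR1C2 (14.1) and AKR1C1 (2.69), with overlap between AKR1A1 and AKR1B1 and between AKR1C3 and AKR7A2. With control shRNA it ran AKR1B1 (84.3 FPKM), AKR1C3 (73.9), AKR1C2 (49.4), AKR1A1 (43.7), AKR7A2 (34.1) and AKR1C1 (10.5), and each of AKR1B1 and AKR1C3, AKR1C2 and AKR1A1, and AKR1A1 and AKR7A2 overlapped. Compared within each library, AKR1A1 was above AKR1B1 and AKR1C3 above AKR7A2 in every HYOU1 shRNA library. Likewise AKR1A1 was above AKR7A2 in every control library, while the other overlapping control pairs changed order between libraries. AKR1E2 and AKR1B10 came last in both groups.

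These levels are per kilobase of the deposited gene length, which for every family gene equalled the union of all annotated exons. That length was 8765 bases for AKR1C1 and 6461 for AKR1C2, against coding sequences of 969 bases each, while it was 1781 for AKR7A2 with a coding sequence of 1077. Little of the length used for AKR1C1 and AKR1C2 is thus coding. Measured against the principal annotated transcript, however, the deposited length was 1.31 times as long for both AKR1C1 and AKR7A2. It was 1.72 times as long for AKR1C2 and AKR1A1, 2.51 for AKR1C3 and 2.60 for AKR1B1. Counted as fragments, AKR1C3 (17952), AKR1C2 (17108) and AKR1B1 (16604) led in the control libraries, and AKR1C1 (4932) was above AKR7A2 (3290). With HYOU1 shRNA the order was AKR1B1 (11181), AKR1A1 (9905), AKR1C3 (9610), AKR1C2 (4910), AKR7A2 (3368) and AKR1C1 (1268). The ratio of FPKM between the groups does not depend on the length.

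The 8 genes together took 0.0755% ± 0.0030 of all fragments with HYOU1 shRNA and 0.127% ± 0.0047 with control shRNA (SD, n = 3 each). AKR1C1, AKR1C2 and AKR1C3 made up 38.7% to 40.0% of the fragments of these 8 genes with HYOU1 shRNA. Their share was 57.0% to 64.3% with control shRNA. The ratio of AKR1A1 to AKR1B1 FPKM averaged 1.04 ± 0.024 in the HYOU1 shRNA libraries and 0.516 ± 0.035 in the control libraries (SD, n = 3 each).

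**Figure D2:**
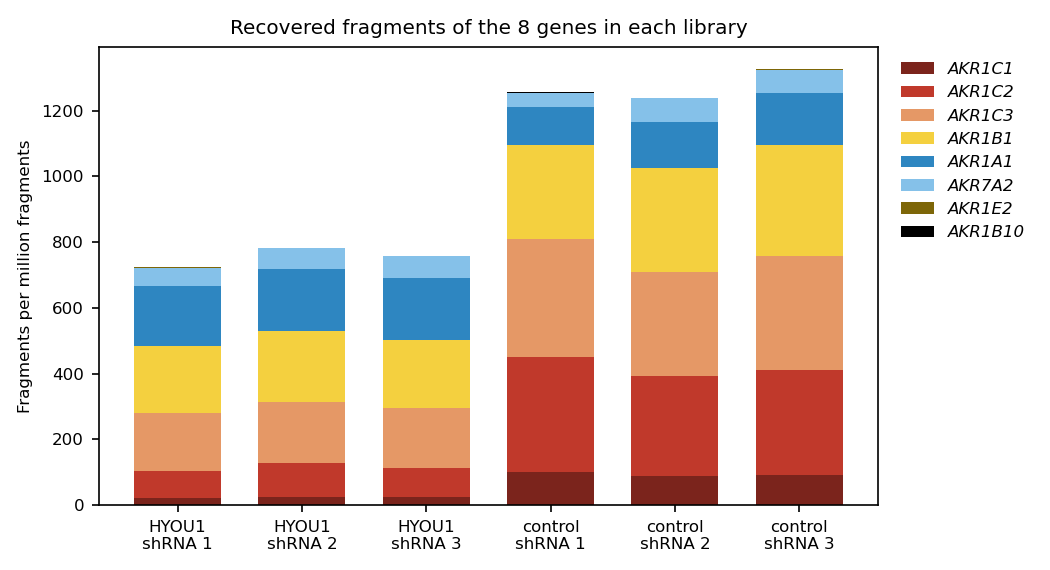
Recovered fragments of each of the 8 genes per 1000000 fragments of the library (vertical axis, linear, stacked), for the 3 HYOU1 shRNA and 3 control shRNA libraries. The AKR1C1, AKR1C2, AKR1C3 and AKR1B1 segments are smaller in every HYOU1 shRNA library, and the AKR1A1 segment is larger there.

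AKR1C1 and AKR1C2 lie tail to tail on chromosome 10 with 4116 bases between them, and AKR1C3 follows 17322 bases after AKR1C2. In the window from 4371901 to 5788470, which reaches 500000 bases to either side of the AKR1C genes and pseudogenes, 8 protein-coding genes were tested. The 3 called were AKR1C1, AKR1C2 and AKR1C3. AKR1C4, the liver member of the subfamily, was at 1.02, 0.796 and 1.16 FPKM with HYOU1 shRNA and at 2.27, 1.31 and 1.98 FPKM with control shRNA, which did not overlap. These levels came from 35, 28 and 39 fragments with HYOU1 shRNA and 74, 47 and 68 with control shRNA. AKR1C4 shared 17.6% of its 50-base coding windows with other genes, AKR1C3 most often, so its level is uncertain. Its log2 fold change of -0.82 (standard error 0.27) was not past the threshold (limma, adjusted p = 0.0946), though it was with GC correction (adjusted p = 0.0428). The 4 tested genes outside the subfamily all lie past AKR1C4, from 5412551 on, and no tested gene of the window lies before AKR1C1. None of these 4 genes was called with all 6 libraries. The groups did not overlap for ASB13, which was higher with HYOU1 shRNA, and FAM208B, which was lower, as in 44.4% of all tested genes. NET1, an activator of RhoA, differed by 0.038 on the log2 scale (limma, adjusted p = 0.879) and GDI2, which binds Rab proteins, by -0.085 (adjusted p = 0.786). ASB13, of a ubiquitin ligase, differed by 0.50 (adjusted p = 0.101) and FAM208B by -0.49 (adjusted p = 0.239). Without control replicate 1 ASB13 was called, at 0.33 (limma, adjusted p = 0.00409), on the opposite side of 0 from the AKR1C genes. It was also called with GC correction, at 0.34 (adjusted p = 0.00394). Without control replicate 1 FAM208B differed by -0.19 and GDI2 by 0.13, and neither was called. With GC correction FAM208B differed by -0.35 (limma, adjusted p = 0.0544) and GDI2 by 0.050, and again neither was called. An annotated antisense RNA over AKR1C2, AL391427.1, had 8 fragments with HYOU1 shRNA and 51 with control shRNA. No strand-marking step is named in the labels, so these cannot be told apart from fragments of AKR1C2.

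**Figure D3:**
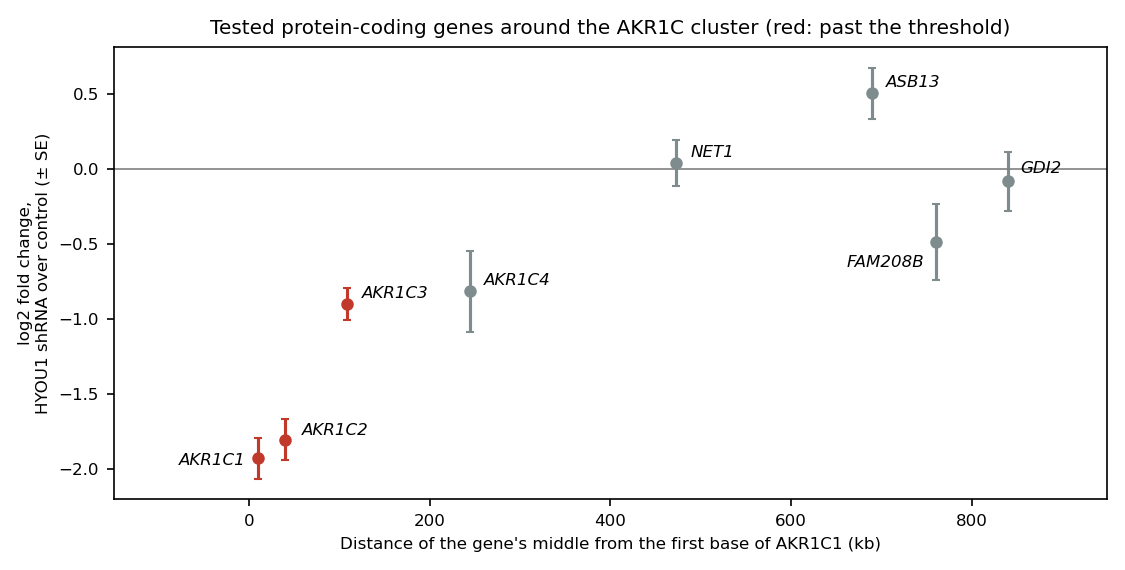
Fitted log2 fold change of HYOU1 shRNA over control shRNA (vertical axis, ± SE) for the 8 tested protein-coding genes around the AKR1C cluster, placed by the distance of the gene's middle from the first base of AKR1C1 in kilobases. AKR1C1, AKR1C2 and AKR1C3 (red) were called, and AKR1C4 and the 4 genes beyond it (grey) were not.

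The table held 31 genes and pseudogenes named for the family or for its potassium channel branch, of which 11, all pseudogenes, were listed at 0 in every library. Outside the 8 genes, AKR1C4 and KCNAB2 were tested and the rest fell short of 1 FPKM. KCNAB2, a beta subunit of voltage-gated potassium channels that has the aldo-keto reductase fold, rose. It was at 16.7, 17.4 and 18.2 FPKM with HYOU1 shRNA and at 5.54, 10.2 and 10.3 FPKM with control shRNA. The groups did not overlap and control replicate 1 was the lowest library, 0.87 below the other two controls on the log2 scale. KCNAB2 differed by 1.05 (standard error 0.25) on the log2 scale (limma, adjusted p = 0.0428), and by 0.76 without control replicate 1 (adjusted p = 0.000105). The call was lost without any 1 of the other libraries (adjusted p up to 0.164), and with quantile normalization, a filter of 0.1 FPKM or no filter. KCNAB2 overlaps NPHP4 on the other strand, which had 2434 fragments with HYOU1 shRNA and 1912 with control shRNA, so its value is uncertain. KCNAB1, another channel subunit, had 98 fragments with HYOU1 shRNA and 84 with control shRNA. KCNAB3, AKR1B15, AKR7A3, AKR7L and AKR1C8P had 0 to 28 fragments with HYOU1 shRNA and 1 to 49 with control shRNA. AKR1D1, the bile acid enzyme that reduces the steroid ring, had 2 fragments with HYOU1 shRNA and 3 with control shRNA.

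**Figure D4:**
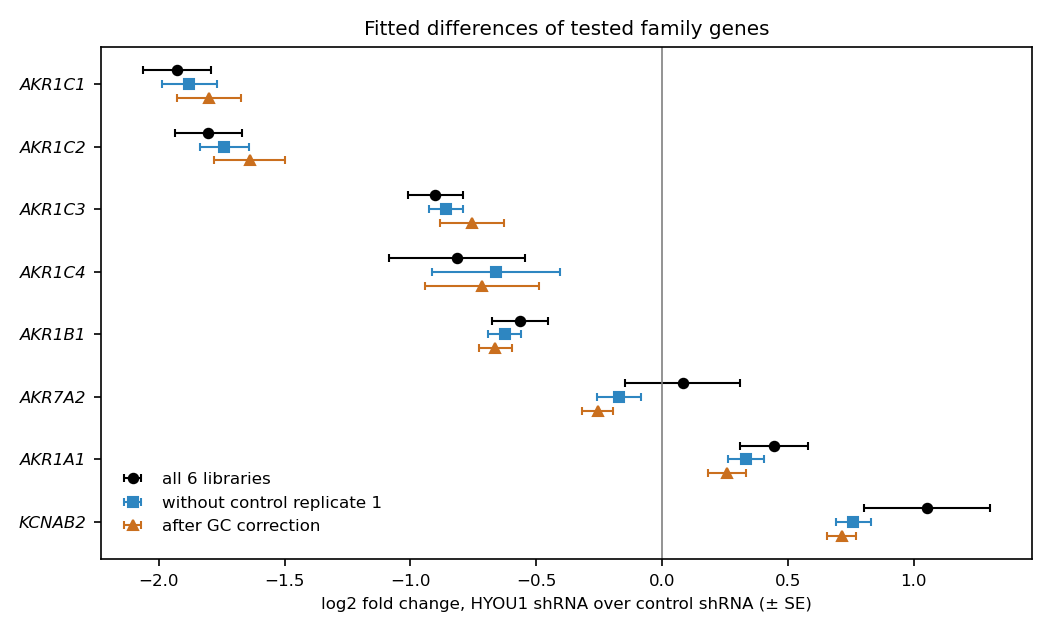
Fitted log2 fold change of HYOU1 shRNA over control shRNA (horizontal axis, ± SE) of the 8 tested genes of the family, from all 6 libraries (black), without control replicate 1 (blue) and with GC correction (orange). AKR1C1, AKR1C2, AKR1C3 and AKR1B1 stay below 0 and AKR1A1 and KCNAB2 above it in all 3 fits, and AKR7A2 changes side.

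Of 30 tested NRF2 targets other than aldo-keto reductases, 3 fell, 0 rose and 27 did not pass, a share near the 12.3% called among all tested genes, at a median log2 fold change of -0.20, against 0.035 over all tested genes. SLC7A11, the cystine transporter, fell to 1.77 ± 0.127 FPKM with HYOU1 shRNA, against 7.12 ± 2.41 FPKM with control shRNA (SD, n = 3 each), by 1.90 on the log2 scale (limma, adjusted p = 0.00931). TRIM16L, a TRIM family gene, fell to 11.9 ± 0.277 FPKM, against 29.7 ± 4.44 FPKM with control shRNA, by 1.30 (adjusted p = 0.00611). ME1, the cytosolic malic enzyme that supplies NADPH, fell to 12.5 ± 0.151 FPKM, against 21.8 ± 4.74 FPKM with control shRNA, by 0.78 (adjusted p = 0.0340). All 3 calls were lost without any 1 of the HYOU1 shRNA libraries (adjusted p up to 0.147), and that on ME1 also without control replicate 2 and with no filter. Leaving out control replicate 1 gave 15 lower and 0 higher targets. Log2 fold changes were then -1.64 for SLC7A11, -1.43 for TRIM16L and -0.61 for ME1. That fit called 44.3% of all 12448 tested genes, 2456 of them lower and 3062 higher. GC correction also gave 15 lower and 0 higher targets, in a fit that called 40.6% of all genes, 2513 of them lower and 2535 higher. Among NRF2 and its regulators, 1 of 10 rose, 0 fell and 9 did not pass, again near the 12.3% of all tested genes. NFE2L2, which encodes NRF2, differed by -0.12 (adjusted p = 0.786) and KEAP1, which directs its degradation, by -0.12 (adjusted p = 0.756). The regulator that rose was MAFF, a small MAF protein and partner of NRF2, at 7.93 ± 0.604 FPKM with HYOU1 shRNA and 3.76 ± 0.928 FPKM with control shRNA, higher by 1.08 on the log2 scale (limma, adjusted p = 0.0247). Its call was lost without control replicate 2 or any 1 of the HYOU1 shRNA libraries (adjusted p up to 0.123), and with no filter. MAFF differed by 0.88 without control replicate 1 and by 0.72 with GC correction. Of these 10 genes 4 were higher and 2 lower without control replicate 1, where 44.3% of all genes were called, and 3 were higher and 2 lower with GC correction, where 40.6% were.

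Of 31 other carbonyl reductases, aldehyde dehydrogenases and polyol enzymes tested, 2 rose, 2 fell and 27 did not pass (median log2 fold change 0.034). The 12.9% called in this list was near the 12.3% of all tested genes. SORD, sorbitol dehydrogenase, which acts after AKR1B1 in the polyol pathway, rose to 13.2 ± 0.505 FPKM with HYOU1 shRNA, against 8.60 ± 0.480 FPKM with control shRNA (SD, n = 3 each), by 0.62 on the log2 scale (limma, adjusted p = 0.0216). ALDH1A3, which makes retinoic acid, rose by 0.91 (adjusted p = 0.0225). ALDH5A1, which oxidises succinic semialdehyde, a substrate it shares with AKR7A2, fell by 0.63 (adjusted p = 0.0269), and ALDH2, of acetaldehyde oxidation, fell by 0.54 (adjusted p = 0.0476). These 4 calls were lost without control replicate 2 or any 1 of the HYOU1 shRNA libraries (adjusted p up to 0.182), and with no filter. Those on the 3 aldehyde dehydrogenases were also lost without control replicate 3, and that on ALDH2 with a filter of 0.1 FPKM or TPM scaling. In the list, 4 genes were higher and 10 lower without control replicate 1 (44.3% of all genes called), against 4 higher and 9 lower with GC correction (40.6% called).

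Among 26 tested enzymes of steroid, prostaglandin and retinoid metabolism, 3 rose, 1 fell and 22 did not pass (median log2 fold change 0.048). The share called was 15.4% in this list and 12.3% among all tested genes. STS, steroid sulfatase, which frees steroids from their sulfates, fell to 5.96 ± 0.477 FPKM with HYOU1 shRNA, against 37.6 ± 6.62 FPKM with control shRNA (SD, n = 3 each), by 2.63 on the log2 scale (limma, adjusted p = 0.00199). PTGES, a prostaglandin E synthase, rose to 57.2 ± 4.45 FPKM, against 30.6 ± 7.43 FPKM with control shRNA, by 0.93 (adjusted p = 0.0334). HSD3B7, of bile acid synthesis, was higher by 0.96 (adjusted p = 0.0407), and HSD11B2, which inactivates cortisol, by 0.83 (adjusted p = 0.0443). PTGES differed by 0.72 without control replicate 1 and by 0.74 with GC correction. Neither HSD3B7 nor HSD11B2 was past the threshold with GC correction. All calls but that on STS were lost without control replicate 2 or any 1 of the HYOU1 shRNA libraries (adjusted p up to 0.174), and with no filter. That on HSD11B2 was also lost without control replicate 3 or with a filter of 0.1 FPKM, and that on HSD3B7 with the same filter or quantile normalization. In this list, 6 genes were higher and 6 lower without control replicate 1 (44.3% of all genes called), against 3 higher and 7 lower with GC correction (40.6% called).

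**Figure D5:**
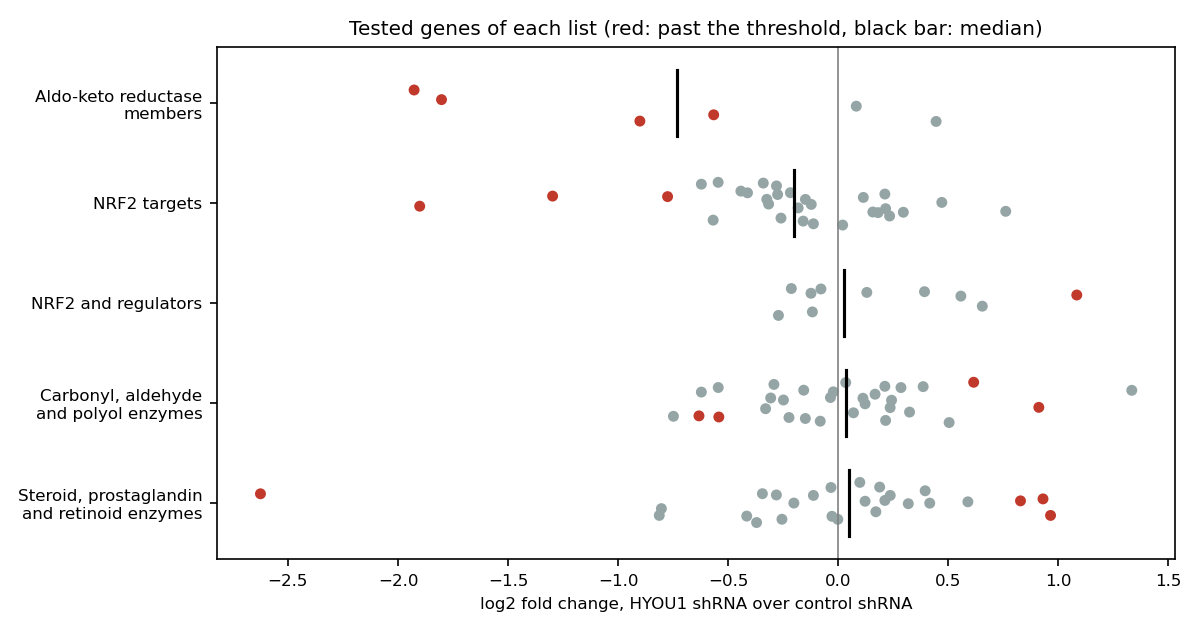
Log2 fold change of HYOU1 shRNA over control shRNA (horizontal axis) for the 6 tested members and the tested genes of each list, with called genes in red and the median as a black bar. The NRF2 targets centre at -0.20 with called genes on the lower side, and the other 3 lists centre between 0.025 and 0.048.

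The profile of AKR1C1 over the 6 libraries was compared with those of 6793 protein-coding genes outside the family that averaged 5 FPKM or more, as the root mean square difference of log2(FPKM + 0.1) values, each less its own mean. The difference was 0.073 for AKR1C2, smaller than for any of these genes, 0.52 for AKR1C3 and 0.69 for AKR1B1. Of the 50-base coding windows of AKR1C1, 51.6% also occur in AKR1C2, and how such fragments were counted is not stated. The closeness of AKR1C1 and AKR1C2 therefore cannot be told apart from an effect of shared fragments. The 5 nearest genes outside the family were CPS1 at 0.12, COL15A1 at 0.15, IGFBP1 at 0.16, FSTL4 at 0.19 and TFRC at 0.20. CPS1, the first enzyme of the urea cycle, was at 48.2 ± 1.13 FPKM with HYOU1 shRNA and 190.5 ± 28.3 FPKM with control shRNA (SD, n = 3 each). COL15A1, a basement membrane collagen, was at 8.20 ± 0.271 FPKM with HYOU1 shRNA and 32.4 ± 2.39 FPKM with control shRNA. IGFBP1 encodes a binding protein of insulin-like growth factors, FSTL4 a follistatin-like protein and TFRC the transferrin receptor. Likeness here rests on 6 libraries in 2 groups and picks genes with a similar difference between them.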

How the data were processed

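Per the labels' protocols, oligo(dT) beads selected the RNA, which was fragmented and primed with random hexamers. The authors deposited FPKM values per gene. The sources used here name no aligner or counting tool. All 58735 gene IDs and coordinates matched GENCODE release 29 on GRCh38. FPKM times gene length came in whole multiples of 1 step per library (100% of values within 0.01 fragments), which gave the fragment totals, and the authors' scaling totals were proportional to median-of-ratios size factors recomputed from them. A count of 3 fragments was worth 0.160 to 0.176 FPKM for a gene of 1 kb, counting error only.

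Values were fitted as log2(FPKM + 0.1) with limma 3.58.1 in R 4.3.3 (variance trend, robust priors) for 12448 genes that averaged 1 FPKM or more. The fit was also run on simulated libraries that all had the same spread, taken without control replicate 1. That run therefore cannot show how the fit behaves with a library that stands apart. The GC correction removed a lowess trend (span 0.3) on transcript GC content in each library and was chosen after seeing the data, and 6 genes had no GC value. Sequences came from GENCODE 29 transcripts and RefSeq promoters. The members, gene lists and rules were chosen with earlier results of these data known. Named were the 8 members, HYOU1, other family genes, up to 6 called genes per list with the largest change, NFE2L2, KEAP1, neighbours of the AKR1C cluster and the 5 profiles nearest to AKR1C1. Alternatives covered the pseudocount, the filter, scaling, the replicate block, the variance model, voom on recovered fragments and leaving out each library.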

Additional observations from a re-analysis of the deposited data

How the results depend on the processing

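Over 18 alternatives AKR1C1 and AKR1C2 were called lower in each, with log2 fold changes of -1.98 to -1.64 and -1.90 to -1.64. AKR1C3 was called in 15 and fell short without any 1 HYOU1 shRNA library. AKR1A1 was called in 2, namely GC correction and leaving out control replicate 1. AKR7A2, at 0.082, turned to -0.012 with quantile normalization and to -0.26 with GC correction, with or without the replicate block, and ranged from -0.17 without control replicate 1 to 0.22 without control replicate 3. The count of called members, 4 of 6 tested, ranged from 2 to 5 when 1 library was left out. For all genes the count was 1526, and it was 938 with a filter of 5 FPKM, 770 with no filter, 5048 with GC correction and 4504 with GC correction and the replicate block. It ranged from 49 without HYOU1 shRNA replicate 3 to 5518 without control replicate 1. The cause was not tested.

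Whether replicate numbers pair the libraries was not settled. Deviations of same-numbered libraries correlated at 0.125, -0.0933 and 0.170 across genes. The libraries numbered 1 and 3 correlated best with their own number, and neither library numbered 2 did. With the replicate number as a block, 940 genes and 3 members were called. The limma adjusted p was then 0.055 for AKR1B1, 0.0518 for ME1, 0.0573 for SORD, 0.0572 for ALDH1A3, 0.059 for ALDH5A1, 0.0887 for ALDH2, 0.0611 for HSD3B7 and 0.0507 for HSD11B2, and the block ended no other call on a named family or list gene. Fragment counts limit AKR1E2 and AKR1B10, with 144 and 43 fragments over all libraries.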
